A study of Mus musculus with 24 samples.

Results

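The course after drug withdrawal was read from 6 of the 24 arrays of the series, 3 of treated embryoid bodies (EBs) at day 12 and 3 of treated EBs at day 8. The arrays were chosen by their titles alone. All 21789 probe sets that carry 1 gene symbol were compared, of 35556 in the table, and they stand for 19938 genes. EBs are aggregates of differentiating embryonic stem cells, here of the mouse line 46C, in which a fluorescent protein reports on the Sox1 gene. Treated EBs had been given a pair of calcineurin inhibitors between day 3 and day 8, cyclosporin A at 1 ug/ml together with FK506 at 100 ng/ml. Untreated EBs had received neither drug, and their 3 arrays at day 12 and 3 at day 8 serve here as the course without drugs. All EBs, drugged or not, started on gelatin with the cytokine LIF, floated in low attachment dishes from day 3, were plated on day 7 and were fed serum-free ITS medium from day 8. The end of the drugs, the new medium and the passing of time therefore coincide in treated EBs, and their parts in a difference between day 12 and day 8 cannot be told apart. The labels number the arrays of a group as biological replicates, and the study design names 3 independent experiments. Each array reads a mixture of cell types, so fewer cells of a type and less RNA per cell cannot be told apart.

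Calcineurin is a calcium-dependent phosphatase that frees the NFAT transcription factors to enter the nucleus. FK506 blocks it in a complex with FKBP proteins and cyclosporin A in a complex with cyclophilins. EBs repeat in outline the order of the early embryo: the pluripotency network is shut off, a stage that resembles the primitive streak passes under Nodal and Wnt signals, and neural, mesodermal and endodermal cells then form and mature.

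Signals are log2 values after robust multiarray average (RMA), and every difference below is day 12 minus day 8 on the log2 scale, with the SE and the Benjamini-Hochberg adjusted p of limma's moderated test over all 21789 probe sets. A probe set passed where that adjusted p was under 0.05. The medians of the 24 arrays lay between 7.80 and 7.88. Treated day 8 replicate 2 stood apart from the other arrays of its group. It was the highest of the 3 for 24 of 25 pluripotency genes, whose mean signal was 9.57, 10.47 and 9.89 in treated day 8 replicates 1, 2 and 3. It was the highest for 0 of 15 smooth muscle genes, whose means were 9.89, 9.36 and 9.73. Treated day 12 replicate 2 also differed from its group. It was the lowest of the 3 for 22 of 28 matrix, 20 of 27 collagen and 13 of 16 macrophage genes, and the highest for 27 of 29 cell cycle and 19 of 20 cholesterol genes. Replicate 2 of the untreated EBs shifted alike in some lists. Embryonic globin and erythroid means were 8.89, 7.77 and 8.28 in untreated day 8 replicates 1, 2 and 3, against 8.77, 7.90 and 8.60 in treated ones. Macrophage means were 7.29, 7.00 and 7.31 in those of untreated day 12. Pluripotency means at untreated day 8, 10.32, 10.36 and 10.16, did not show the gap. The part of either treated array in a result is shown by the values without it, which keep the untreated array of that number. List counts without treated day 8 replicate 2 are given where they move by more than 1.5 times, and those without another treated array where the larger count is also at least 4.

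Between day 8 and day 12 the treated EBs gained matrix, collagen, heart muscle, neural and macrophage transcripts and lost those of pluripotency, Nodal signalling and the primitive streak. Of the 21789 probe sets, 3591 were higher at day 12 (16.5%) and 3774 were lower (17.3%). Large rises outnumbered large falls: 609 probe sets (2.79%) passed and were at least 2-fold higher, against 168 (0.771%) that were at least 2-fold lower. Over all probe sets the median difference was 0.01, and the 3 day 12 arrays lay above the 3 day 8 arrays for 4519 of them (20.7%) and below for 4592 (21.1%). Untreated EBs had 4112 probe sets higher at day 12 (18.9%) and 4384 lower (20.1%), and the share called in either direction was 33.8% in treated and 39% in untreated EBs. The treated and untreated changes, which share no array, had Pearson's r of 0.80 and Spearman's rho of 0.66 across the 21789 probe sets. Both are given as a description, since genes are not independent replicates. Same-numbered treated and untreated arrays of a day also deviated alike, with r from 0.118 to 0.548, so the changes may not be independent.

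The largest rise was that of Lox, which encodes lysyl oxidase, the enzyme that cross-links collagen and elastin. Lox had signals of 11.36, 9.95 and 11.22 in treated EBs at day 12, against 6.60, 6.30 and 6.52 at day 8. The lowest day 12 array stood well above the highest day 8 array, and the difference was 4.37 (SE 0.25, adjusted p = 5.09e-11), which is 20.6-fold. Next came proteoglycan genes of the collagen matrix. Dcn (decorin) read 13.32, 12.72 and 13.14 in treated EBs at day 12, against 10.07, 8.12 and 9.07 at day 8, a difference of 3.97 (SE 0.32, adjusted p = 5.53e-09). Lum (lumican) read 11.95, 11.34 and 11.88 in treated EBs at day 12, against 9.28, 5.82 and 8.28 at day 8, a difference of 3.93 (SE 0.49, adjusted p = 2.06e-06). The groups of both genes were far apart, although the day 8 arrays of Lum differed among themselves by more than those of Dcn. Fmod (fibromodulin, 3.47), Ogn (osteoglycin, 2.91), the fibrillar collagen gene Col3a1 (2.88), Islr (2.80) and Adamtsl1 (2.87) belonged to the same matrix-rich group of secreted proteins. Of genes known from the nervous system, the ephrin receptor gene Epha3 rose by 3.53, the adhesion gene Ntm (neurotrimin) by 3.05, Nrn1 (neuritin) by 2.87 and Slitrk6 by 2.93. Secreted factors among the largest rises were Tgfb3 (3.02), Ptn (pleiotrophin, 2.92) and Nell1 (2.95). The developmental regulator Mab21l2 (3.00), the membrane protein gene Itm2a (2.88), the fetal serum protein gene Afp (2.87) and the atrial myosin light chain genes Myl7 (2.82) and Myl4 (2.77) completed the 20 largest, clone names and small RNAs left out. Adjusted p-values of these 20 genes lay at or below 2.06e-06.

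**Figure D1:**
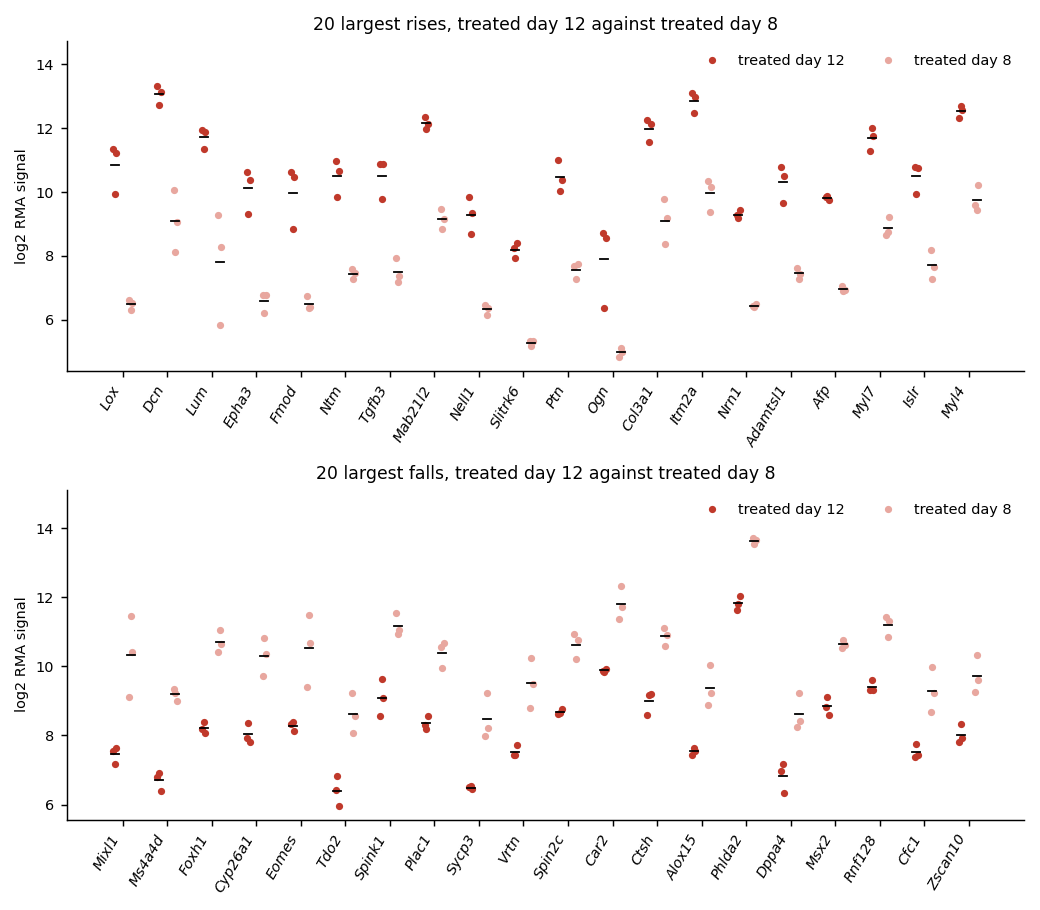
Log2 RMA signal of the 20 genes with the largest rises (top) and falls (bottom), small RNA genes and clone names left out, for treated EBs at day 12 (dark red) and at day 8 (light red). Points are the 3 arrays of a group and black bars their mean; by the rule that chose them, the 2 groups of points do not overlap for any of the 40 genes.

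Apart from miRNA genes, the largest fall was that of Mixl1, a homeobox gene of the primitive streak. Mixl1 read 7.56, 7.18 and 7.64 in treated EBs at day 12, against 9.11, 11.47 and 10.41 at day 8. Day 8 replicate 2 was the highest, and all 3 day 8 arrays exceeded those of day 12, with a difference of -2.87 (SE 0.38, adjusted p = 4.82e-06). Foxh1, the DNA-binding partner of the Smad proteins that Nodal activates, read 8.20, 8.40 and 8.07 in treated EBs at day 12, against 10.40, 11.06 and 10.63 at day 8, a difference of -2.47 (SE 0.15, adjusted p = 8.43e-11). The T-box gene Eomes (-2.24), the retinoic acid degrading enzyme gene Cyp26a1 (-2.26) and the Nodal co-receptor gene Cfc1 (-1.77) are of the same stage of development. Of genes known from pluripotent cells, Dppa4 fell by 1.81, Zscan10 by 1.70 and Sycp3, a meiotic chromosome protein gene that stem cells also express, by 1.99 on the log2 scale. Placental or imprinted genes among the 20 were Plac1 (-2.05) and Phlda2 (-1.81), and Msx2, a homeobox target of bone morphogenetic protein (BMP), stood at -1.79. Tdo2 (-2.21), Spink1 (-2.09), Car2 (-1.93), Ctsh (-1.87) and Alox15 (-1.84), which encode enzymes or an enzyme inhibitor, also fell. The others were Ms4a4d (-2.50), the transcriptional regulator gene Vrtn (-1.98), Spin2c (-1.95) and the ubiquitin ligase gene Rnf128 (-1.78).

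Gene lists were read by the count of their members that passed, beside 16.5% higher and 17.3% lower over all probe sets, and by their median beside 0.01. The bar chart of called members by list gives all 49 of them. No list was tested as a set. Lists and members were chosen with earlier results of these data known, so the counts beside the background are a description only.

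**Figure D2:**
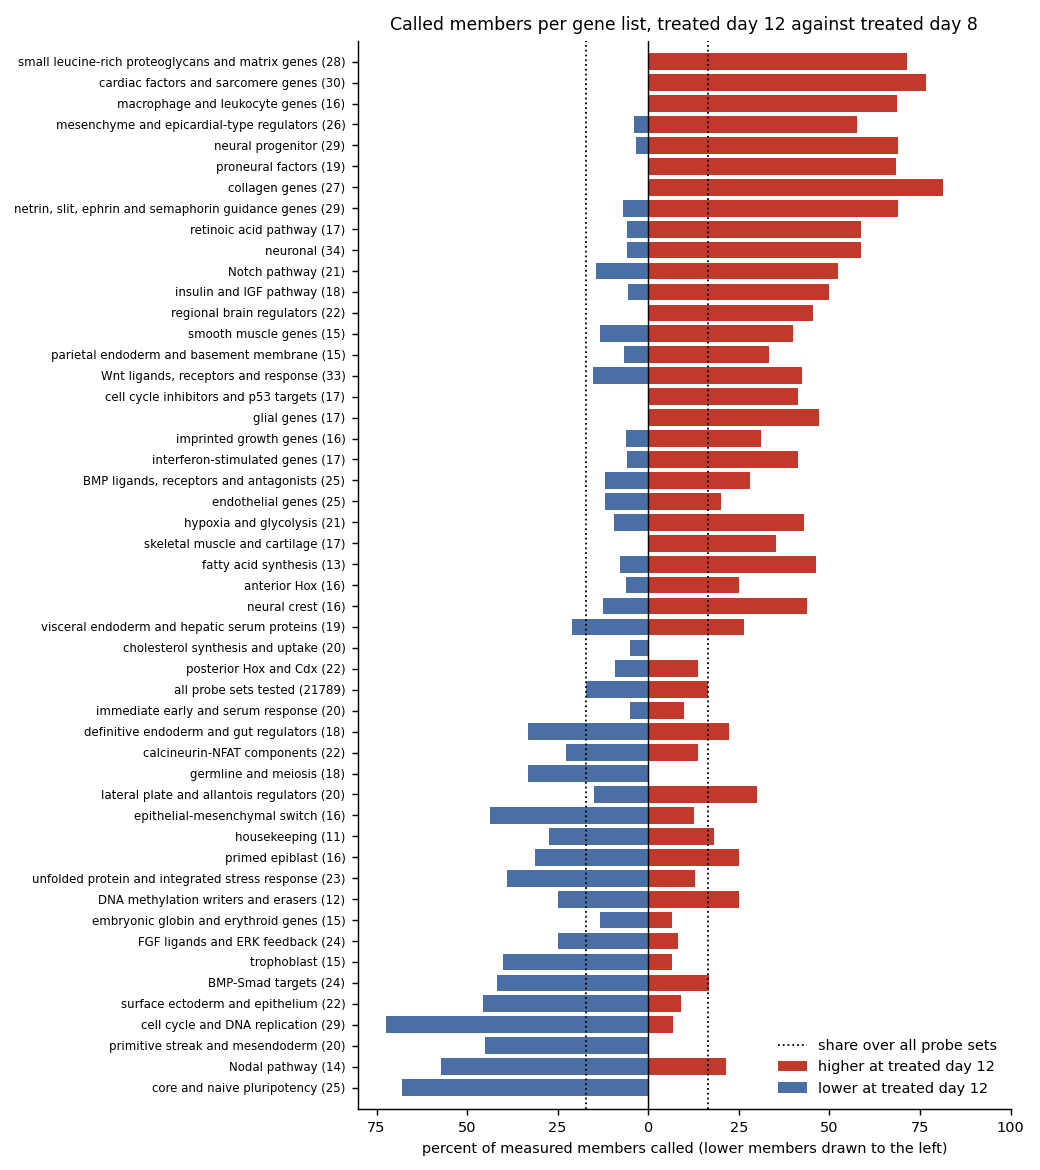
Percent of measured members of each of the 49 gene lists that were higher (red, right) or lower (blue, left) at treated day 12 than at treated day 8, with the number of measured members in brackets; dotted lines mark 16.5% higher and 17.3% lower over all 21789 probe sets. Lists are ordered by their median difference; cardiac genes reach 23 of 30 higher and pluripotency genes 17 of 25 lower.

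Pluripotency genes fell without any member passing in the other direction: 0 of 25 measured members were higher and 17 lower, with a median of -0.86. The mean signal over the list ran from 9.07 to 9.27 in treated EBs at day 12 and from 9.57 to 10.47 at day 8. Pou5f1 encodes Oct4, the transcription factor without which pluripotent cells lose their identity. It read 9.35, 9.22 and 9.03 in treated EBs at day 12, against 10.06, 11.72 and 10.79 at day 8, a difference of -1.66 (SE 0.24, adjusted p = 1.36e-05), with every day 12 array below every day 8 array. Nanog, its partner in that network, read 10.67, 10.46 and 10.35 in treated EBs at day 12, against 11.11, 12.35 and 11.64 at day 8, a difference of -1.20 (SE 0.20, adjusted p = 8.1e-05). Day 8 replicate 2 was the highest array for both genes, and without it the list had 1 higher and 16 lower. Sall4 (-1.18) and Lin28a, an RNA-binding protein gene that blocks let-7 maturation (-1.24), fell with smaller errors (SE 0.10 and 0.17). Tbx3 (-1.57), Tfcp2l1 (-0.72) and Dppa4, the largest fall of the list, passed as well. Sox2, which serves neural progenitors as well as stem cells, had a difference of 0.22 (adjusted p = 0.529). The 8 members that did not pass also included Klf2 (-0.17, adjusted p = 0.222), Klf4 (-0.11, adjusted p = 0.29) and Klf5 (-0.0046, adjusted p = 0.983). Klf2 passed without treated day 8 replicate 1 (-0.28, adjusted p = 0.0456). Sox2 passed without treated day 8 replicate 2 (0.55, adjusted p = 0.0369).

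The same genes fell by more in several cases in untreated EBs. Pou5f1 read 8.44, 7.88 and 7.81 in untreated EBs at day 12, against 11.49, 11.90 and 11.65 at day 8, and its treated minus untreated difference of change was 1.98 (SE 0.34, adjusted p = 0.00242). In untreated EBs 0 were higher and 23 lower of the 25 pluripotency genes, with a median of -1.37. The difference of the changes passed for 10 of these genes, all positive, beside 2.5% positive and 2.45% negative over all probe sets, among them Utf1 (2.03), Dppa2 (1.97) and Nanog (1.74). The rest of the list did not pass in that test. Pou5f1 and Utf1 did not pass in the difference of change with only the 12 arrays of days 8 and 12 in the fit (highest adjusted p = 0.0593).

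Genes of the primed epiblast, the state that follows naive pluripotency, were mixed, and 4 of 16 measured members were higher and 5 lower. Dnmt3b, the de novo DNA methyltransferase of that state, fell by 1.34 on the log2 scale, whereas Dnmt3a rose by 0.63. Lefty2 (-1.50), the Wnt effector gene Lef1 (-1.18) and the FGF response gene Etv5 (-0.88) fell, and the Wnt inhibitor gene Nkd1 (0.82) rose. Fgf5, the usual marker of this state, read 7.49, 8.00 and 8.05 in treated EBs at day 12, against 7.57, 9.93 and 8.67 at day 8. Its groups overlapped, with day 8 replicate 2 the highest, and its difference of -0.87 (adjusted p = 0.0622) did not pass. Among writers and erasers of DNA methylation 3 of 12 measured members were higher and 3 lower, and the others that passed were Tet2 (0.65), Apobec1 (0.89), Uhrf1 (-0.41) and Dnmt3l, the cofactor of de novo methylation (-0.91). In the primed epiblast list the number of members higher was 2 without treated day 12 replicate 2 and 2 without treated day 12 replicate 3. In the DNA methylation writers and erasers list the number of members lower was 5 without treated day 12 replicate 2. Dnmt3l lost its call without treated day 8 replicate 2 (adjusted p = 0.0638). Fgf5 passed without treated day 8 replicate 1 (-1.45, adjusted p = 0.000432). Dnmt3l had a difference of -0.41 without treated day 8 replicate 2. Fgf5 passed with array weights (adjusted p = 0.0396). Dnmt3l did not pass with only the 6 treated arrays in the fit (adjusted p = 0.138). Fgf5 passed with the replicate number as a block across days (adjusted p = 0.0297).

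Nodal, its co-receptors and its feedback inhibitors fell. Nodal is a TGF-beta family ligand that needs the co-receptors Tdgf1 and Cfc1, signals through Foxh1 and is held back by its own targets Lefty1 and Lefty2. Nodal itself read 8.03, 8.30 and 8.15 in treated EBs at day 12, against 9.03, 9.94 and 9.20 at day 8, a difference of -1.23 (SE 0.17, adjusted p = 1e-05). With it fell Tdgf1 (-1.21), Cfc1, Foxh1, Lefty2 and Lefty1 (-0.85). Of the list as a whole 3 of 14 measured members were higher and 8 lower, and without treated day 8 replicate 2 the counts were 1 higher and 8 lower. The members that rose were the receptor gene Acvr2a (0.32), Smad3 (0.27) and the proprotein convertase gene Pcsk6 (0.33). The list median was -0.46 in treated EBs and -0.77 in untreated EBs, where 3 were higher and 7 lower. The difference of change was positive for 3 of the 14 and negative for 0. In the primitive streak list 0 of 20 measured members were higher and 9 lower, with a median of -0.39. In untreated EBs 0 were higher and 17 lower, with a median of -0.71. The difference of change was positive for 1 of the 20 and negative for 0. The falls in treated EBs were those of Mixl1, Eomes and Cyp26a1 with Mesp1 (-1.26), Aplnr (-1.27), Wnt3 (-1.23), Lhx1 (-1.01), Fgf8 (-0.75) and Evx1 (-0.34). Kdr, a receptor of vascular and early mesodermal cells, read 11.19, 10.49 and 11.04 in treated EBs at day 12, against 10.43, 10.19 and 10.49 at day 8, with overlapping groups and a difference of 0.54 (adjusted p = 0.166). The brachyury gene, which marks the streak, is not analysed here. In the primitive streak and mesendoderm list the median was -0.63 without treated day 8 replicate 1 and -0.21 without treated day 8 replicate 2. Acvr2a lost its call without treated day 12 replicate 1 or 2 or treated day 8 replicate 2 or 3 (highest adjusted p = 0.106). Evx1 lost its call without treated day 12 replicate 1 or 2 or treated day 8 replicate 2 or 3 (highest adjusted p = 0.0936). Lhx1 lost its call without treated day 12 replicate 1 or 2 or 3 or treated day 8 replicate 2 or 3 (highest adjusted p = 0.325). Pcsk6 lost its call without treated day 12 replicate 1 or 2 or 3 or treated day 8 replicate 1 or 3 (highest adjusted p = 0.276). Smad3 lost its call without treated day 12 replicate 1 or 2 or treated day 8 replicate 2 or 3 (highest adjusted p = 0.24). Lhx1 had a difference of -1.63 and Pcsk6 one of 0.18 without treated day 8 replicate 1. Fgf8 had a difference of -0.49, Lefty1 one of -0.49, Lhx1 one of -0.48, Pcsk6 one of 0.51, Smad3 one of 0.15 and Tdgf1 one of -0.74 without treated day 8 replicate 2. Lhx1 and Pcsk6 did not pass when all probe sets of the table were tested (highest adjusted p = 0.067). Lhx1 did not pass with an intensity trend and robust prior (adjusted p = 0.0732). Fgf8, Lefty1, Lhx1, Pcsk6, Smad3 and Tdgf1 did not pass with only the 6 treated arrays in the fit (highest adjusted p = 0.189).

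**Figure D3:**
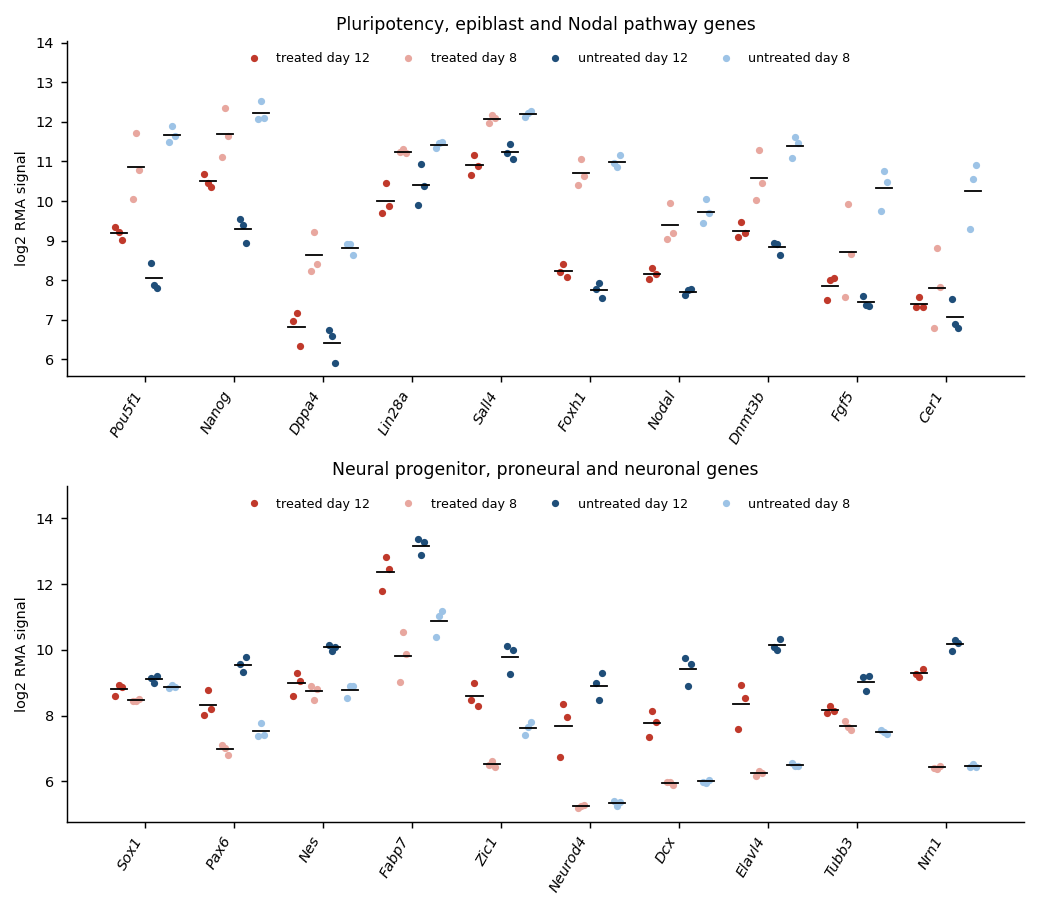
Log2 RMA signal in treated EBs at day 12 and day 8 (dark and light red) and in untreated EBs at day 12 and day 8 (dark and light blue) for 10 pluripotency, epiblast and Nodal pathway genes (top) and 10 neural genes (bottom). Points are arrays (3 per group) and black bars group means; Pou5f1 falls in both courses but ends higher in the treated one, and Dcx rises in both but ends lower in the treated one.

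The largest falls among miRNA genes were those of the miR-302 cluster. miRNAs are short RNAs that silence transcripts through a seed, bases 2 to 8 of the mature strand, and an array probe set reads the locus or its precursor, not the mature strand. The miRNAs named here were chosen after their values were seen. Of 296 miRNA genes with a probe set of their own, 35 were higher (11.8%) and 13 lower (4.39%) at treated day 12, beside 16.5% and 17.3% over all probe sets, and 270 matched a mature sequence of RefSeq (GRCm38.p6). Mature strands of some of the named genes are shown with the seed in capitals, to set shared seeds side by side. The first group are genes that fell, of the miR-302 cluster on chromosome 3, the most characteristic miRNA cluster of the epiblast, with miR-367 of that cluster and miR-18a and miR-19a of the miR-17 cluster on chromosome 14.
miR-302b-3p (Mir302b, chr3:127545275-127545297, plus strand): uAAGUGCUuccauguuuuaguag
miR-302d-3p (Mir302d, chr3:127545665-127545687, plus strand): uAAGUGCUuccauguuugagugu
miR-302c-3p (Mir302c, chr3:127545406-127545427, plus strand): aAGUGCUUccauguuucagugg
miR-367-3p (Mir367, chr3:127545779-127545800, plus strand): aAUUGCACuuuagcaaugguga
miR-18a-5p (Mir18, chr14:115043867-115043889, plus strand): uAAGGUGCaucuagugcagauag
miR-19a-3p (Mir19a, chr14:115044048-115044070, plus strand): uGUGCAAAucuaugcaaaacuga
The second group are genes that rose, which are members of the miR-181, miR-99 and miR-100, let-7, miR-125 and miR-219 families.
miR-181b-5p (Mir181b-1, chr1:137966650-137966673, plus strand): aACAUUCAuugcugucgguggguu
miR-181c-5p (Mir181c, chr8:84178924-84178945, minus strand): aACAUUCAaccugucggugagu
miR-99a-5p (Mir99a, chr16:77598940-77598961, plus strand): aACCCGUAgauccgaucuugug
miR-100-5p (Mir100, chr9:41531437-41531458, plus strand): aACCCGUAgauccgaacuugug
let-7c-5p (Mirlet7c-1, chr16:77599672-77599693, plus strand): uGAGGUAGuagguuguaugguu
miR-125b-5p (Mir125b-1, chr9:41581940-41581961, plus strand): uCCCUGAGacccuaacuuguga
miR-219a-5p (Mir219a-2, chr2:29845689-29845709, minus strand): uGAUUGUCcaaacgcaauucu

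miR-302b and miR-302d share the seed AAGUGCU, and the listed miR-302c strand starts 1 base later in the same run of letters. Mir302b read 4.84, 4.52 and 4.45 in treated EBs at day 12, against 6.28, 8.56 and 7.40 at day 8. The day 12 arrays lay together, those of day 8 spread widely with replicate 2 the highest, and the difference was -2.81 (SE 0.50, adjusted p = 0.000136). Mir302a (-3.17), Mir302c (-3.08), Mir302d (-2.60) and Mir367 (-1.66) fell in the same way, and these neighbours in one cluster are not independent readings. Mir18 (-0.84) and Mir19a (-0.83) fell by less, with all 3 day 12 arrays below those of day 8. Their changes in untreated EBs were -0.12 (adjusted p = 0.585) and -0.063 (adjusted p = 0.775), and the difference of the changes was -0.72 (SE 0.23, adjusted p = 0.0749) for Mir18 and -0.76 (SE 0.22, adjusted p = 0.049) for Mir19a. Mir181b-1, a gene of the miR-181 seed ACAUUCA, read 8.11, 7.41 and 7.53 in treated EBs at day 12, against 5.07, 5.31 and 5.18 at day 8, a difference of 2.49 (SE 0.17, adjusted p = 5.64e-10). Of the 6 measured genes with that seed 4 rose, the others being Mir181b-2 (1.83), Mir181c (0.55) and Mir181a-2 (0.49). All 3 measured genes with the seed ACCCGUA rose, Mir99a by 1.87, Mir100 by 1.05 and Mir99b by 0.36. Mirlet7c-1, which lies beside Mir99a on chromosome 16, rose by 1.18, and of the 9 measured genes with the let-7 seed GAGGUAG 2 passed, both higher. Mir125b-1 (1.04) and Mir219a-2 (1.14) rose too, as did Mir145a (1.63) and Mir143 (0.90), which are known from smooth muscle. Mir367 lost its call without treated day 12 replicate 3 or treated day 8 replicate 2 (highest adjusted p = 0.17). Mir367 had a difference of -0.98 without treated day 8 replicate 2. Mir181a-2 and Mir367 did not pass with only the 6 treated arrays in the fit (highest adjusted p = 0.0666). Mir19a lost its called difference of change without treated day 12 replicate 1 or 3, treated day 8 replicate 1 or 3, untreated day 12 replicate 1 or 2 or 3 or untreated day 8 replicate 1 or 2 or 3 (highest adjusted p = 0.142). Mir18 passed in the difference of change without treated day 12 replicate 2 (-0.86, adjusted p = 0.029). Mir19a did not pass in the difference of change when all probe sets of the table were tested (adjusted p = 0.0937). Mir19a did not pass in the difference of change with an intensity trend and robust prior (adjusted p = 0.0503). Mir18 passed in the difference of change with only the 12 arrays of days 8 and 12 in the fit (adjusted p = 0.0481). Mir19a did not pass in the difference of change with the replicate number as a block across days (adjusted p = 0.0609). Mir18 passed in the difference of change with the replicate number as a block within each day (adjusted p = 0.00619).

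**Figure D4:**
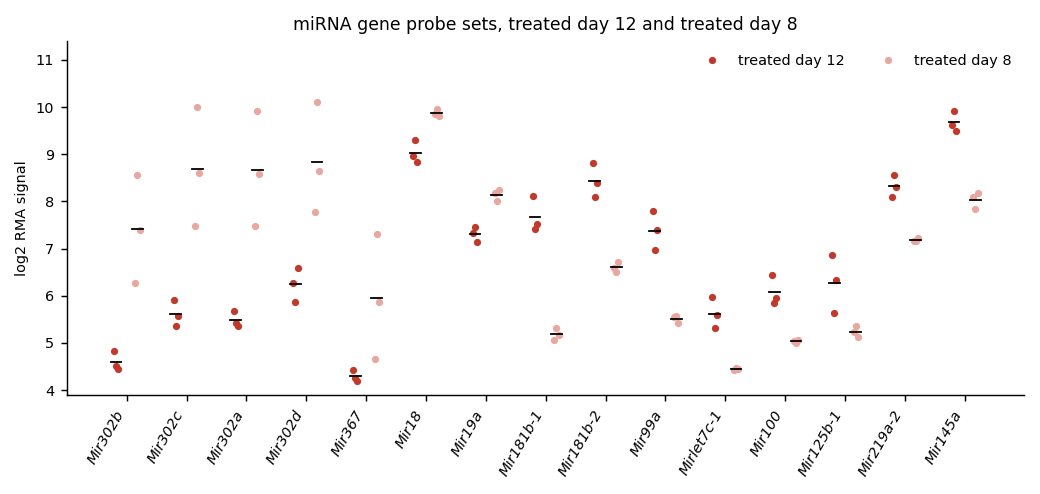
Log2 RMA signal of the probe sets of 15 miRNA genes in treated EBs at day 12 (dark red) and at day 8 (light red). Points are the 3 arrays of a group and black bars their mean; the miR-302 cluster genes are low and tight at day 12 and high and spread at day 8, and Mir181b-1 shows the reverse order.

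Collagen and matrix genes rose, and no member of either list fell. Of the collagen list 22 of 27 measured members were higher and 0 lower, with a median of 0.54, and the day 12 arrays lay above the day 8 arrays for 23 members. Among fibrillar collagens rose Col3a1, Col1a2 (2.01) and Col5a2 (1.30), beside the beaded-filament collagens Col6a1 (1.65) and Col6a3 (1.99) and the fibril-associated Col14a1 (2.46). Col1a1, the main collagen of bone and skin, read 12.84, 12.37 and 12.72 in treated EBs at day 12, against 11.51, 10.44 and 11.20 at day 8, a difference of 1.59 (SE 0.22, adjusted p = 8.12e-06). The basement membrane genes Col4a1 (-0.096, adjusted p = 0.549) and Col4a2 (0.0055, adjusted p = 0.981) did not pass. Of the proteoglycan and matrix list 20 of 28 measured members were higher and 0 lower, with a median of 0.96 against 0.58 without treated day 8 replicate 2. Bgn (biglycan, 2.15), Vtn (vitronectin, 2.56) and Thbs2 (thrombospondin, 1.18) rose beside Lox, Dcn, Lum and Fmod. Postn, which encodes the matrix protein periostin, read 13.10, 12.95 and 12.98 in treated EBs at day 12, against 12.69, 10.38 and 12.22 at day 8. Day 8 replicate 2 was the lowest of the 6, and the difference of 1.25 (adjusted p = 0.0602) did not pass. Mfap5 (-0.031, adjusted p = 0.893) and Kera (-0.021, adjusted p = 0.916) did not pass either. In the list of parietal endoderm and basement membrane 5 of 15 measured members were higher and 1 lower, led by Nid1 (nidogen, 1.18) and Nid2 (0.45), and the counts were 3 higher and 0 lower without treated day 8 replicate 2. Postn passed without treated day 8 replicate 1 (1.71, adjusted p = 0.0146). Nid2 had a difference of 0.27 without treated day 12 replicate 1. Nid2 did not pass with only the 6 treated arrays in the fit (adjusted p = 0.0784). Postn passed among probe sets above the 40th percentile of mean level (adjusted p = 0.0486). Postn passed with the replicate number as a block across days (adjusted p = 0.0422).

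Regulators of mesenchyme and of the epicardium, the cell layer that covers the heart, also rose: 15 of 26 measured members were higher and 1 lower, with a median of 0.69. The transcription factor genes Ebf1 (2.12), Ebf2 (1.70), Osr1 (1.30), Wt1 (1.59) and Zeb2 (0.95) were among them. Aldh1a2, whose enzyme makes retinoic acid in the mesoderm and epicardium, read 9.33, 9.35 and 9.52 in treated EBs at day 12, against 7.04, 7.18 and 7.23 at day 8, a difference of 2.25 (SE 0.17, adjusted p = 1.32e-09). The untreated difference of Wt1 was -0.011 (adjusted p = 0.971), and the difference of the changes was 1.60 (SE 0.27, adjusted p = 0.00192). Snai1, a repressor of epithelial genes, was the member that fell (-0.41). In the list of lateral plate and allantois regulators 6 of 20 measured members were higher and 3 lower, and 4 higher and 5 lower without treated day 8 replicate 2. There Tcf21 (1.21) and Gata6 (0.95) rose, while Msx1 fell by 1.00 on the log2 scale and Msx2 fell too. Twist1 and Isl1, also of that list, had treated differences of -0.21 (adjusted p = 0.583) and -0.30 (adjusted p = 0.318) and rose in untreated EBs, with differences of change of -1.31 and -1.18. Snai1 lost its call without treated day 12 replicate 2 or 3 or treated day 8 replicate 2 or 3 (highest adjusted p = 0.0703). Twist1 passed without treated day 8 replicate 2 (-0.68, adjusted p = 0.00247). Twist1 passed with array weights (adjusted p = 0.025). Snai1 did not pass under quantile normalization (adjusted p = 0.0559). Isl1 lost its called difference of change without treated day 12 replicate 1 or 3, treated day 8 replicate 3, untreated day 12 replicate 2 or 3 or untreated day 8 replicate 2 (highest adjusted p = 0.0806). Twist1 lost its called difference of change without treated day 12 replicate 3, treated day 8 replicate 1 or 3, untreated day 12 replicate 1 or 2 or untreated day 8 replicate 2 (highest adjusted p = 0.108). Isl1 and Twist1 did not pass in the difference of change when all probe sets of the table were tested (highest adjusted p = 0.0719). Twist1 did not pass in the difference of change with an intensity trend and robust prior (adjusted p = 0.0541). Isl1 and Twist1 did not pass in the difference of change with only the 12 arrays of days 8 and 12 in the fit (highest adjusted p = 0.148).

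Heart muscle genes rose and none fell: 23 of 30 measured members were higher and 0 lower, with a median of 0.95. The mean signal over the list ran from 9.45 to 9.75 in treated EBs at day 12 and from 8.27 to 8.66 at day 8, and the day 12 arrays lay above the day 8 arrays for 23 members. Tnnt2 encodes the troponin that ties tropomyosin to the cardiac thin filament. It read 11.53, 11.72 and 11.78 in treated EBs at day 12, against 9.21, 8.67 and 9.42 at day 8, a difference of 2.57 (SE 0.27, adjusted p = 2.14e-07), which is 5.94-fold. Myosin genes rose likewise, Myh6 by 2.23, Myh7 by 2.22, Myl2 by 0.96 and Myl7 by 2.82. The genes of the giant spring protein titin (Ttn, 2.11), of the Z-disc protein Actn2 (1.91) and of cardiac actin (Actc1, 1.83) followed. Nkx2-5, an early heart regulator, changed little, with signals of 9.08, 9.16 and 9.20 in treated EBs at day 12, against 8.82, 8.78 and 8.84 at day 8 and a difference of 0.33 (SE 0.095, adjusted p = 0.00819). Isl1, a regulator of heart progenitors and of motor neurons, had the lowest value of the list at -0.30 (adjusted p = 0.318). In untreated EBs 24 were higher and 0 lower, and the difference of change passed for 0 of the 30 genes in the positive and 2 in the negative direction (Tnni3 and Isl1), beside 2.5% and 2.45% over all probe sets.

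Smooth muscle genes were divided, since 6 of 15 measured members were higher and 2 lower. The enteric actin gene Actg2 (1.78), the desmin gene Des (1.42), Synpo2 (1.26), the myosin light chain gene Myl9 (1.00) and its kinase gene Mylk (0.48) rose. Cnn1 (calponin, -0.43) and Ptgis (-0.33) fell. Of skeletal muscle and cartilage genes 6 of 17 measured members were higher and 0 lower. Those that rose were Pax3 with the chondrogenic factor genes Sox5 (0.93), Sox6 (0.85) and Sox9 (0.58), the satellite cell gene Pax7 (0.37) and the myogenic factor gene Myf5 (0.28), while the actin gene Acta1 of skeletal muscle (-0.18, adjusted p = 0.238) did not pass. Pax3, Pax7 and Sox9 are also members of the neural progenitor list below. The muscle genes Myod1, Myog and Ckm and the cartilage genes Acan and Comp did not pass either. Of the 37 cardiac or smooth muscle genes with a RefSeq promoter (GRCm38.p6), 4 (10.8%) held a CArG box, the sequence bound by serum response factor, in the 250 bases before the start site, searched on both strands, against 1.62% of all 27025 genes with a promoter. All 4 rose, beside 23 of 30 cardiac and 6 of 15 smooth muscle members with or without the box. Genes without a box were not counted apart, so no link of the box to a rise was tested. The windows of the 4 genes are shown with the CArG box in capitals.
Myl7 (chr11:5898814-5898863, minus strand): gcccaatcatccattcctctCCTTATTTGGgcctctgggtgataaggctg
Actc1 (chr2:114052893-114052942, minus strand): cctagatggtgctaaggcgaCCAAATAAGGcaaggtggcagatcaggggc
Myl3 (chr9:110763573-110763622, plus strand): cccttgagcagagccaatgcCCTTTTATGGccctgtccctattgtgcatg
Myl9 (chr2:156775283-156775332, plus strand): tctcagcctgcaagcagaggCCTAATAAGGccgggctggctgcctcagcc
A match describes these letters and shows no binding. Other motifs searched in those 250 bases on both strands were the E-box CACGTG, in 4 of 16 cholesterol genes and 1 of 37 muscle genes against 6.86% of all genes, the NFAT core GGAAA, in 10 of 16 cholesterol genes and 19 of 37 muscle genes against 58.8% of all genes, and the sterol regulatory element, in 0 of 16 cholesterol genes and 0 of 37 muscle genes against 0.226% of all genes. The sterol regulatory element was matched in only 61 of the 27025 genes. With so rare a match, 0 is a likely count in any set of 16 or 37 genes. These counts of 0 therefore do not show that the promoters lack sterol elements. The CArG box was in 0 of 16 cholesterol genes. The NFAT core can share letters with the end of a CArG box. Cnn1 lost its call without treated day 12 replicate 1 or 3 or treated day 8 replicate 1 or 3 (highest adjusted p = 0.121). Myf5 lost its call without treated day 12 replicate 2 or 3 or treated day 8 replicate 2 (highest adjusted p = 0.211). Sox6 had a difference of 0.54 without treated day 8 replicate 2. Myf5 did not pass when all probe sets of the table were tested (adjusted p = 0.0549). Myf5 and Sox6 did not pass with only the 6 treated arrays in the fit (highest adjusted p = 0.0874).

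Neural genes rose, both those of progenitors and those of neurons. Of the neural progenitor list 20 of 29 measured members were higher and 1 lower, with a median of 0.58. Fabp7, a fatty acid binding protein of radial glia, had the largest rise (2.55), and Zic1 (2.06), Pax3 (1.69), Lhx2 (1.31) and the glutamate transporter gene Slc1a3 (1.23) rose with it. Sox1, the early neural gene that carries the reporter of this line, read 8.61, 8.93 and 8.86 in treated EBs at day 12, against 8.43, 8.45 and 8.51 at day 8. Its day 12 arrays lay above those of day 8 by a small amount, 0.34 (SE 0.085, adjusted p = 0.00359). Pax6, a regulator of forebrain, eye and spinal cord progenitors, read 8.03, 8.78 and 8.19 in treated EBs at day 12, against 7.09, 7.01 and 6.81 at day 8, a difference of 1.36 (SE 0.16, adjusted p = 8.1e-07). Nes, which encodes the progenitor filament nestin, read 8.61, 9.31 and 9.06 in treated EBs at day 12, against 8.90, 8.48 and 8.82 at day 8, and its difference of 0.26 (adjusted p = 0.285) did not pass. Hes1, a Notch target that holds progenitors undifferentiated, was the member that fell (-0.46). In the neural progenitor list the median was 0.39 without treated day 12 replicate 2 and 0.36 without treated day 8 replicate 1. Hes1 lost its call without treated day 12 replicate 1 (adjusted p = 0.0534).

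Among regional regulators of the brain 10 of 22 measured members were higher and 0 lower. Wnt1 of the midbrain and dorsal midline (1.72), Irx5 (0.90) and the ventral genes Shh (0.87), Nkx2-2 (0.73) and Nkx6-1 (0.93) rose, while Six6 of the eye field (-0.062, adjusted p = 0.642) did not pass. Of proneural factors, which commit progenitors to become neurons, 13 of 19 measured members were higher and 0 lower. Neurod4 (2.45), Ebf3 (2.12), Nhlh1 (2.03), Atoh1 of the dorsal hindbrain (1.05) and Insm1 (0.72) led. Of neuronal genes 20 of 34 measured members were higher and 2 lower, with a median of 0.39, and the counts were 22 higher and 1 lower without treated day 8 replicate 2. Nrn1, the adhesion gene Ncam1 (1.86), the microtubule genes Map2 (1.67) and Dcx (1.83) and the RNA-binding protein gene Elavl4 (2.10) were called with the smallest p-values. Tubb3, the neuronal tubulin used as a stain for neurons, read 8.09, 8.29 and 8.13 in treated EBs at day 12, against 7.82, 7.64 and 7.56 at day 8, a difference of 0.50 (SE 0.10, adjusted p = 0.000505). Prph, a filament gene of peripheral neurons (-0.98), and Stmn2 (-0.56) were the members that fell. Axon guidance genes rose too: 20 of 29 measured members were higher and 2 lower, or 15 higher and 1 lower without treated day 8 replicate 2. Among them were the receptor gene Dcc (2.18), the ephrin receptor gene Epha7 (1.66) and the semaphorin genes Sema3a (2.06), Sema3c (1.99) and Sema3d (1.38) beside Epha3. Unc5b, a repulsive netrin receptor, had the lowest value (-0.64). Of glial genes 8 of 17 measured members were higher and 0 lower, led by the gliogenic factors Nfib (2.46) and Nfia (2.24), whereas the mature glial genes Gfap (0.14, adjusted p = 0.324), Aqp4 (0.17, adjusted p = 0.0675) and S100b (0.077, adjusted p = 0.57) did not pass. Of neural crest genes 7 of 16 measured members were higher and 2 lower, with Tfap2b (1.92), Tfap2a (1.30) and Ednrb (1.93) higher and Msx1 lowest. Dcx, Elavl4 and Tubb3 rose by less than in untreated EBs, with differences of change of -1.59 (SE 0.24, adjusted p = 0.000711), -1.54 (SE 0.27, adjusted p = 0.00269) and -1.03 (SE 0.14, adjusted p = 0.000371). That difference was negative for 11 of 34 neuronal, 8 of 19 proneural and 7 of 29 neural progenitor genes, beside 2.45% over all probe sets. It was positive for 0, 1 and 1 of them, beside 2.5%. Untreated medians of these lists were 0.85, 1.19 and 0.82, against treated medians of 0.39, 0.58 and 0.58. Stmn2 lost its call without treated day 12 replicate 1 or 3 or treated day 8 replicate 2 (highest adjusted p = 0.2). Stmn2 had a difference of -0.27 without treated day 8 replicate 2. Aqp4 passed with array weights (adjusted p = 0.0345). Stmn2 did not pass with only the 6 treated arrays in the fit (adjusted p = 0.141). Aqp4 passed under quantile normalization (adjusted p = 0.0155). Elavl4 did not pass in the difference of change with only the 12 arrays of days 8 and 12 in the fit (adjusted p = 0.0571).

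The targets of BMP, a signal that favours mesoderm and epidermis over neural fate, leaned downward. Of the BMP-Smad target list 4 of 24 measured members were higher and 10 lower, with a median of -0.19, or -0.36 without treated day 8 replicate 2. In untreated EBs 4 were higher and 6 lower, with a median of -0.054. The difference of change was positive for 0 and negative for 1 of the 24, near the 2.5% and 2.45% over all probe sets. The treated values of single members follow. Msx2 read 8.83, 9.11 and 8.60 in treated EBs at day 12, against 10.53, 10.77 and 10.61 at day 8, a difference of -1.79 (SE 0.27, adjusted p = 2.33e-05). Id1, which encodes an inhibitor of neurogenic helix-loop-helix factors and is a direct BMP target, read 9.97, 10.29 and 9.78 in treated EBs at day 12, against 10.46, 10.60 and 10.45 at day 8, a difference of -0.49 (SE 0.17, adjusted p = 0.0284). Id3 (-0.57) and the feedback inhibitors Smad6 (-0.67) and Smad7 (-0.48) fell with it, and Cdx2, a gene of posterior and trophoblast cells, by more (-1.53). Id2 had a difference of 0.20 (adjusted p = 0.287). Tfap2a and the homeobox gene Dlx5 (0.42) were higher. The ligand gene Bmp4 read 12.09, 12.13 and 12.01 in treated EBs at day 12, against 12.10, 12.14 and 12.08 at day 8, and its groups overlapped with a difference of -0.027 (adjusted p = 0.924). Another ligand gene, Bmp2, fell by 1.34 on the log2 scale, and the receptor gene Bmpr1b (0.77), the antagonist gene Chrdl1 (0.50) and Gdf6 (0.51) rose. Over the list of ligands, receptors and antagonists 7 of 25 measured members were higher and 3 lower. In the BMP-Smad targets list the number of members higher was 2 without treated day 8 replicate 3. In the BMP-Smad targets list the median was -0.12 without treated day 8 replicate 3. In the BMP ligands, receptors and antagonists list the number of members higher was 4 without treated day 12 replicate 1. Dlx5 lost its call without treated day 12 replicate 2 or treated day 8 replicate 2 or 3 (highest adjusted p = 0.133). Gdf6 lost its call without treated day 12 replicate 1 or treated day 8 replicate 2 (highest adjusted p = 0.0968). Id1 lost its call without treated day 12 replicate 1 or 3 or treated day 8 replicate 2 (highest adjusted p = 0.156). Dlx5 had a difference of 0.27 without treated day 12 replicate 2. Dlx5 and Gdf6 did not pass with only the 6 treated arrays in the fit (highest adjusted p = 0.0798). Id1 did not pass under quantile normalization (adjusted p = 0.0605).

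Genes of the drug target pathway moved little. Of the calcineurin and NFAT list 3 of 22 measured members were higher and 5 lower, within a range from -0.41 to 0.36 and with a median of -0.052, which turned to 0.0054 under quantile normalization. Rcan1, an inhibitor of calcineurin and a known NFAT target, read 9.58, 9.87 and 9.79 in treated EBs at day 12, against 10.28, 10.05 and 10.05 at day 8, a difference of -0.38 (SE 0.10, adjusted p = 0.00657). Its day 12 arrays lay below those of day 8, after the drugs had been removed, and its untreated change was -0.12 (adjusted p = 0.386). The catalytic subunit genes Ppp3ca (0.33) and Ppp3cc (0.36) and the salt-responsive Nfat5 (0.36) rose, and the FK506-binding protein genes Fkbp4 (-0.41) and Fkbp5 (-0.39) fell. Ppp3cb (0.055, adjusted p = 0.649) and Nfatc1 (-0.15, adjusted p = 0.313) did not pass. The difference of the changes from the untreated course passed for 0 of the 22 members, beside 4.95% over all probe sets, so this count is near the background, as is the share of treated calls beside 33.8%. In the calcineurin-NFAT components list the number of members lower was 2 without treated day 12 replicate 1 and 3 without treated day 8 replicate 1. In the calcineurin-NFAT components list the median was -0.011 without treated day 12 replicate 2. Fkbp5 lost its call without treated day 8 replicate 2 (adjusted p = 0.0585). Rcan1 lost its call without treated day 12 replicate 1 (adjusted p = 0.0518). Fkbp5 and Nfat5 did not pass with only the 6 treated arrays in the fit (highest adjusted p = 0.0677).

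Of endothelial genes 5 of 25 measured members were higher and 3 lower, a share near the 33.8% called over all probe sets, and 4 higher and 5 lower without treated day 8 replicate 2. The scavenger receptor gene Stab2 (0.71) and the lymphatic gene Lyve1 (0.66) rose, and Sox17 (-0.81) and the VEGF receptor gene Flt1 (-0.78) fell. Of embryonic globin and erythroid genes 1 of 15 measured members were higher and 2 lower, or 0 higher and 5 lower without treated day 8 replicate 2. The yolk sac globin gene Hbb-y rose (2.08), but Hbb-bh1, expressed in the same primitive red cells, read 10.53, 10.02 and 10.45 in treated EBs at day 12, against 11.95, 10.25 and 11.95 at day 8. Day 8 replicate 2 lay with the day 12 arrays, and the difference of -1.05 (adjusted p = 0.109) did not pass. Klf1, the erythroid master regulator, fell (-0.67). Macrophage and leukocyte genes rose as a group: 11 of 16 measured members were higher and 0 lower, with a median of 0.93, and the day 12 arrays lay above those of day 8 for 12 members. C1qb, a complement subunit made by macrophages, read 8.96, 8.66 and 8.73 in treated EBs at day 12, against 6.13, 6.54 and 6.42 at day 8, a difference of 2.42 (SE 0.19, adjusted p = 2.77e-09). The macrophage receptor genes Csf1r (1.22) and Adgre1 (1.14), the adaptor gene Tyrobp (1.87), Laptm5 (1.13) and C1qc (1.23) rose with it, while Cd68 (-0.16, adjusted p = 0.501) did not pass. In the endothelial genes list the number of members higher was 8 without treated day 8 replicate 1. Hbb-y lost its call without treated day 8 replicate 2 (adjusted p = 0.11). Hbb-bh1 passed without treated day 8 replicate 2 (-1.62, adjusted p = 0.0141). Hbb-y had a difference of 1.15 without treated day 8 replicate 2. Hbb-bh1 passed with array weights (adjusted p = 0.0219). Hbb-y did not pass with only the 6 treated arrays in the fit (adjusted p = 0.0722).

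Serum protein genes of the visceral endoderm and liver split. Afp read 9.85, 9.87 and 9.74 in treated EBs at day 12, against 7.06, 6.88 and 6.93 at day 8, a difference of 2.87 (SE 0.12, adjusted p = 2.05e-13), and Alb (albumin, 1.80) and Apoa1 (1.66) rose with it. The transthyretin gene Ttr (-1.15), Apom (-1.17), Spink1 and Cyp26a1 fell, and 5 of 19 measured members were higher and 4 lower. Of gut endoderm regulators 4 of 18 measured members were higher and 6 lower. Onecut1 of liver and pancreas (1.58), Foxa1 (0.55), Gata6 and Shh rose, and Sox17, Cdx2, the epithelial adhesion gene Epcam (-0.91) and Cldn6 (-0.63) fell. Genes of epithelium fell more often than they rose: 2 of 22 measured members were higher and 10 lower. The tight junction gene Cldn7 (-0.98), the E-cadherin gene Cdh1 (-0.76), the simple-epithelium keratin genes Krt8 (-0.76) and Krt18 (-0.88) and Tfap2c (-0.98) fell, and Grhl3 rose (0.81). In the list of the switch between epithelium and mesenchyme 2 of 16 measured members were higher and 7 lower. Zeb1 (0.90) and Zeb2, repressors of Cdh1, were the 2 that rose. Crb3 (-0.55) and the splicing factor gene Esrp1 (-0.83) were among those that fell. So was Snai1, another repressor of epithelial genes, whose call depended on single arrays. The mesenchymal members Cdh2, Cdh11, Snai2, Vim, Fn1 and Itga5 did not pass as higher. Of trophoblast genes 1 of 15 measured members were higher and 6 lower, or 2 higher and 6 lower without treated day 8 replicate 2, with Plac1, Eomes and Cdx2 lowest and Tpbpa (0.67) higher. Ttr lost its call without treated day 12 replicate 1 or 3 or treated day 8 replicate 1 or 3 (highest adjusted p = 0.0933). Ttr did not pass with an intensity trend and robust prior (adjusted p = 0.0524).

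Cell cycle genes fell by small amounts: 2 of 29 measured members were higher and 21 lower, with a median of -0.37. Genes of DNA replication led, with Cdc6 (-0.70), Gins1 (-0.65), Mcm6 (-0.63), Tyms (-0.61) and Mcm4 (-0.49). Mki67, the gene of the proliferation marker Ki-67, averaged 12.04 ± 0.082 in treated EBs at day 12 and 12.08 ± 0.047 at day 8 (SD, n = 3 each), with overlapping groups and a difference of -0.034 (adjusted p = 0.714). The D-type cyclin genes Ccnd2 (1.37) and Ccnd1 (0.41) were the 2 that rose. Of inhibitors of the cycle and p53 targets 7 of 17 measured members were higher and 0 lower, led by Eda2r (0.82), Cdkn2c (0.60) and Plk2 (0.55). Of immediate early genes 2 of 20 measured members were higher and 1 lower, or 1 higher and 2 lower without treated day 8 replicate 2, with Myc lowest (-1.05). Of germline genes, some of which stem cells also express, 0 of 18 measured members were higher and 6 lower, with Ddx4 (-1.02) and Mael (-1.08) beside Sycp3. Of imprinted growth genes 5 of 16 measured members were higher and 1 lower, with Plagl1 (2.76), Nnat (1.57), Zim1 (1.18), Dlk1 (1.11) and Meg3 (0.52) higher and Phlda2 lower. In the cell cycle and DNA replication list the median was -0.24 without treated day 8 replicate 2. Ccnd1 lost its call without treated day 12 replicate 2 or 3 or treated day 8 replicate 1 (highest adjusted p = 0.117). Ccnd1 had a difference of 0.25 without treated day 12 replicate 2. Mael had a difference of -0.64 without treated day 8 replicate 2. Ccnd1 and Mael did not pass with only the 6 treated arrays in the fit (highest adjusted p = 0.143).

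Other signalling pathways differed in direction. Of the retinoic acid pathway, which patterns hindbrain and heart, 10 of 17 measured members were higher and 1 lower. The receptor gene Rarb, a direct target of retinoic acid, read 11.01, 9.52 and 10.74 in treated EBs at day 12, against 8.38, 7.84 and 8.15 at day 8, a difference of 2.30 (SE 0.26, adjusted p = 6.41e-07), and the binding protein genes Crabp1 (1.13) and Crabp2 (1.69) rose with Aldh1a2. Cyp26a1, which degrades retinoic acid, was the member that fell. Of anterior Hox genes and cofactors 4 of 16 measured members were higher and 1 lower, or 4 higher and 2 lower without treated day 8 replicate 2, among the higher Hoxa2 (1.43), Meis1 (1.57) and Meis2 (1.10). Of posterior Hox and Cdx genes 3 of 22 measured members were higher and 2 lower, or 2 higher and 6 lower without treated day 8 replicate 2. Of Notch genes 11 of 21 measured members were higher and 3 lower, with the ligands Jag1 (1.16), Dll1 (1.16) and Dll4 (0.99) and the receptor Notch1 (0.83) higher and the target Hey2 (-1.03) lower. Of Wnt genes 14 of 33 measured members were higher and 5 lower, with the secreted inhibitors Sfrp1 (1.68) and Sfrp2 (1.89), the receptor Fzd1 (1.35) and Wnt1 higher and the ligands Wnt3, Wnt8a (-1.23) and Wnt5a (-1.18) lower. Of FGF ligands and their feedback genes 2 of 24 measured members were higher and 6 lower, or 1 higher and 5 lower without treated day 8 replicate 2, with Il17rd (-1.30), Spry4 (-0.61) and Fgfr4 (-0.66) lower and Fgfr3 highest (0.59). Of insulin and IGF genes 9 of 18 measured members were higher and 1 lower, or 10 higher and 0 lower without treated day 8 replicate 2, with the adaptor Irs1 (0.81), Akt1 (0.54) and the binding protein genes Igfbp3 (0.75) and Igfbp5 (1.42) higher. In the posterior Hox and Cdx list the number of members higher was 5 without treated day 12 replicate 2. Fgfr3 lost its call without treated day 12 replicate 1 or 2 or treated day 8 replicate 2 or 3 (highest adjusted p = 0.115). Wnt8a had a difference of -0.75 without treated day 8 replicate 2.

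Cholesterol genes had few calls in treated EBs: 0 of 20 measured members were higher and 1 lower, with a median of 0.031, and 4 were higher under quantile normalization. Hmgcs1, the synthase that starts the mevalonate pathway, read 12.18, 12.46 and 12.37 in treated EBs at day 12, against 12.31, 12.27 and 12.32 at day 8, a difference of 0.037 (adjusted p = 0.764). In untreated EBs 16 were higher and 1 lower, with a median of 0.43, and for Hmgcs1 the difference of the changes was -0.51 (SE 0.10, adjusted p = 0.00741). The member that fell was the isomerase gene Ebp (-0.86). Of fatty acid genes 6 of 13 measured members were higher and 1 lower, led by Acss2 (0.70) and the desaturase gene Fads1 (0.52). Of the unfolded protein and stress response 3 of 23 measured members were higher and 9 lower. Members that fell include Creld2 (-0.64), Dnajb11 (-0.58), Manf (-0.52), Pdia6 (-0.44) and Hyou1 (-0.36), of protein folding and secretion in the endoplasmic reticulum, whereas Herpud1, of the disposal of misfolded proteins, rose (0.78). Of hypoxia and glycolysis genes 9 of 21 measured members were higher and 2 lower, with the hypoxia-induced Adm (0.76), Ndrg1 (0.76) and Vegfa (0.54) higher and the glucose transporter gene Slc2a3 lower (-0.41). Of interferon-stimulated genes 7 of 17 measured members were higher and 1 lower, with Ifit1 (1.21), Ifit3 (0.95) and B2m (0.32) higher and Ifitm1 lower (-0.82), and in untreated EBs 2 were higher and 8 lower. Of housekeeping genes 2 of 11 measured members were higher and 3 lower, between -0.24 and 0.32, and the counts were 1 higher and 1 lower without treated day 8 replicate 2 and 2 higher and 0 lower under quantile normalization. In the cholesterol synthesis and uptake list the number of members higher was 4 without treated day 12 replicate 1. In the cholesterol synthesis and uptake list the median was 0.092 without treated day 12 replicate 1, -0.025 without treated day 12 replicate 2 and 0.012 without treated day 8 replicate 2. In the hypoxia and glycolysis list the number of members higher was 5 without treated day 8 replicate 1. In the interferon-stimulated genes list the number of members higher was 4 without treated day 12 replicate 1 and 4 without treated day 12 replicate 3. Ifit1 had a difference of 0.57 without treated day 12 replicate 3. Adm had a difference of 0.48 without treated day 8 replicate 1. Ifit1 did not pass with only the 6 treated arrays in the fit (adjusted p = 0.104). Hmgcs1 did not pass in the difference of change with only the 12 arrays of days 8 and 12 in the fit (adjusted p = 0.0747).

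The treated course was set against the untreated one by the test of the difference between the 2 changes. That difference was positive for 544 probe sets (2.5%) and negative for 534 (2.45%), with 1078 (4.95%) in all. With the replicate number as a block within each day, which pairs treated with untreated arrays, 1074 were positive and 1043 negative. The counts also depended on single arrays: 1017 and 1026 without treated day 8 replicate 2, against 230 and 261 without treated day 12 replicate 3. Of the 1078, the treated change had the same sign as the untreated one and was smaller in 458, was larger in 219 and had the opposite sign in 401.

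Among the largest positive differences were genes that fell in untreated EBs and had treated differences nearer to 0. Cer1, a secreted antagonist of Nodal and BMP, read 7.31, 7.57 and 7.32 in treated EBs at day 12, against 6.80, 8.81 and 7.82 at day 8, and 7.53, 6.90 and 6.79 in untreated EBs at day 12, against 9.29, 10.56 and 10.92 at day 8. The treated groups overlapped and the untreated groups did not, with a difference of change of 2.78 (SE 0.58, adjusted p = 0.00796). Fgf5 (2.02), Utf1, Dppa2 and Pou5f1 were of this kind. Other genes had more positive changes in treated EBs, Ogn by 2.20, Lox by 1.91 and Fmod by 1.88 beyond the untreated change. The neurotransmitter receptor genes Gabra3 (2.61) and Gria1 (1.98), the neuropeptide receptor gene Npy1r (1.85) and the heparanase family gene Hpse2 (1.91) also had positive differences. The largest negative difference was that of Postn, which read 12.67, 12.47 and 12.65 in untreated EBs at day 12, against 10.41, 7.32 and 8.68 at day 8, a difference of change of -2.54 (SE 0.71, adjusted p = 0.0411). Next to it came Sim1, a regulator of hypothalamic neurons (-1.84), with Sim2 (-1.64), Dbx1 (-1.55), the nicotinic receptor gene Chrna3 (-1.80), Gpm6a (-1.60) and Dcx. Clvs1 (-1.74), the Wnt inhibitor gene Apcdd1 (-1.70), Ppp1r17 (-1.68), Bves (-1.66) and Efcab1 (-1.56) completed the 12. Bves lost its called difference of change without treated day 12 replicate 3, treated day 8 replicate 1 or 3 or untreated day 8 replicate 2 (highest adjusted p = 0.0633). Fgf5 lost its called difference of change without treated day 12 replicate 3, treated day 8 replicate 3, untreated day 12 replicate 3 or untreated day 8 replicate 2 (highest adjusted p = 0.0715). Ogn lost its called difference of change without treated day 12 replicate 3 (adjusted p = 0.0533). Postn lost its called difference of change without treated day 12 replicate 1 or 3, treated day 8 replicate 1 or 3, untreated day 12 replicate 1 or 2 or 3 or untreated day 8 replicate 2 or 3 (highest adjusted p = 0.113). Fgf5 and Postn did not pass in the difference of change when all probe sets of the table were tested (highest adjusted p = 0.0838). Postn did not pass in the difference of change with an intensity trend and robust prior (adjusted p = 0.0813). Bves, Cer1, Dbx1, Fgf5, Fmod, Gria1, Lox, Ogn and Postn did not pass in the difference of change with only the 12 arrays of days 8 and 12 in the fit (highest adjusted p = 0.168).

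**Figure D5:**
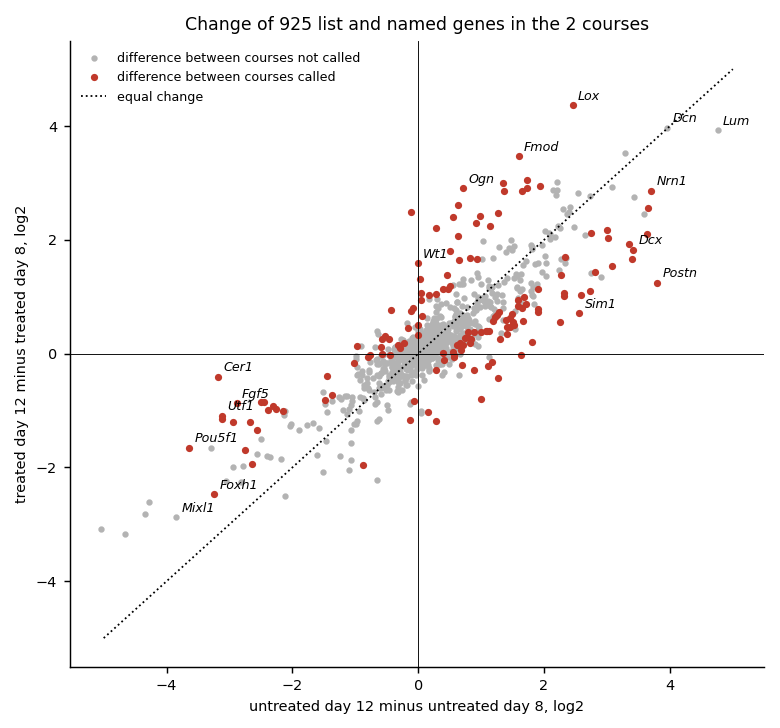
Change from day 8 to day 12 in treated EBs (vertical axis) against that in untreated EBs (horizontal axis), both on the log2 scale, for the 925 list and named genes. Red points are the 148 genes whose change differed between the courses (adjusted p under 0.05), beside 4.95% over all 21789 probe sets. The genes drawn include those named because that difference had passed, which raises the count. The dotted line marks equal change. Most points lie near that line, with Cer1, Fgf5 and Ogn above it and Postn and Sim1 below.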

How the data were processed

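RNA of embryoid bodies was hybridised to Affymetrix Mouse Gene ST arrays, 1 array per sample. The deposited values are on the log2 scale, and the authors made them by RMA in Affymetrix Expression Console, per the submitters' processing notes. Software versions and the build of the array annotation were not given in the sources used here. Its table holds 35556 probe sets for 24 arrays, and 0 of its array columns were left unused. Groups were read from the titles. Probe sets were named by the platform annotation: 21789 carried 1 symbol, 1621 several and 12146 none, and only those with 1 symbol were used, of which 21698 matched the RefSeq gene table. The number of arrays, 3 per group, limits the precision, and the table holds no detection calls, so a low signal may be background.

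limma 3.58.1 in R 4.3.3 fitted the 8 groups of 24 arrays together, without a block, and p-values were adjusted by Benjamini and Hochberg over the 21789 probe sets. A gene was read from its probe set with the highest mean over all arrays. The procedure was tested on simulated data with independent noise for each probe set and array. Outlying arrays and arrays that deviate alike were not simulated, so that test does not bear on them. Of 927 distinct genes in 49 lists, 876 were measured, and Tbxt is not analysed here. Members and lists were chosen with earlier results of these data known. Genes named are the 20 largest rises and falls among called genes whose arrays do not overlap, the 12 largest differences of change each way, up to 6 members of each list with the smallest p plus its highest and lowest, and a fixed set of neural, pluripotency, BMP, calcineurin, heart, matrix and blood markers. Clone names, small RNAs, predicted pseudogenes and receptor families of smell were passed over, and other members are named where a count of few members required it, after their values were seen.

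Replicate numbers come from the labels, which call the arrays biological replicates, and the study design names 3 independent experiments. Deviations of same-numbered arrays from their group means had correlations of 0.205, 0.245 and -0.113 between treated day 12 and day 8. Between untreated day 12 and day 8 they were 0.0426, -0.111 and -0.279. Their signs differed, so the numbers were not taken to pair days. Between treated and untreated arrays they were 0.451, 0.548 and 0.134 at day 8 and 0.118, 0.338 and 0.265 at day 12, all positive. Arrays of different numbers were not compared within a day, so pairing by number there was not tested. Alternatives were quantile normalization, array weights, other filters and scalings, a block, a fold threshold and leaving out each array. Figures were drawn with matplotlib 3.10.9.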

Additional observations from a re-analysis of the deposited data

Results flagged for a closer look

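The day 8 to day 12 change differed between treated and untreated EBs, by limma's adjusted p under 0.05 for the difference itself, for 32 of the genes named with that difference. It was positive (treated minus untreated, log2 scale) for Cer1 (2.78), Gabra3 (2.61), Ogn (2.20), Utf1 (2.03), Fgf5 (2.02), Gria1 (1.98), Pou5f1 (1.98), Dppa2 (1.97), Hpse2 (1.91), Lox (1.91), Fmod (1.88), Npy1r (1.85), Nanog (1.74) and Wt1 (1.60). It was negative for Postn (-2.54), Sim1 (-1.84), Chrna3 (-1.80), Clvs1 (-1.74), Apcdd1 (-1.70), Ppp1r17 (-1.68), Bves (-1.66), Sim2 (-1.64), Gpm6a (-1.60), Dcx (-1.59), Efcab1 (-1.56), Dbx1 (-1.55), Elavl4 (-1.54), Twist1 (-1.31), Isl1 (-1.18), Tubb3 (-1.03), Mir19a (-0.76) and Hmgcs1 (-0.51). With only the 12 arrays of days 8 and 12 in the fit, the difference did not pass for Bves, Cer1, Dbx1, Elavl4, Fgf5, Fmod, Gria1, Hmgcs1, Isl1, Lox, Ogn, Postn, Pou5f1, Twist1 and Utf1. The 12 largest each way were named because they had passed, so the count of 32 is partly fixed by that choice. Over all probe sets 4.95% passed. No explanation for these differences was tested.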

How the results depend on the processing

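With a 2-fold threshold in the test, 211 probe sets were higher and 17 lower in the treated course, 282 higher and 89 lower in the untreated course, and the difference of the changes passed for 0 and 0. The positive differences, 544 as reported, numbered 351 among probe sets above the 40th percentile of mean level, 309 over all probe sets of the table, 1631 with array weights and 91 with only the 12 arrays of days 8 and 12, and the negative ones, 534 as reported, 1475 with array weights and 128 with those 12 arrays. With the replicate number as a block within day, an alternative added after seeing the data, they were 1074 and 1043. In the treated course a replicate block across days, whose numbers were not taken to pair days, gave 3777 higher and 3924 lower. It gave 4290 and 4627 in the untreated course, and 690 positive and 649 negative differences. Leaving out each array in turn gave 2958 to 3547 higher and 2967 to 3784 lower in the treated course, 3480 to 3932 and 3350 to 4251 in the untreated course, and 230 to 1017 positive and 261 to 1026 negative differences. Positive differences moved by more than 1.5 times to 333 without treated day 12 replicate 1, 871 without treated day 12 replicate 2, 230 without treated day 12 replicate 3, 349 without treated day 8 replicate 1, 1017 without treated day 8 replicate 2, 247 without treated day 8 replicate 3, 339 without untreated day 12 replicate 2, 331 without untreated day 12 replicate 3 and 280 without untreated day 8 replicate 2, and negative ones to 337 without treated day 12 replicate 1, 917 without treated day 12 replicate 2, 261 without treated day 12 replicate 3, 330 without treated day 8 replicate 1, 1026 without treated day 8 replicate 2, 290 without treated day 8 replicate 3, 342 without untreated day 12 replicate 2 and 295 without untreated day 8 replicate 2. The cause of these shifts was not tested.

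Of the genes named with a value, only differences that had not passed turned sign under an alternative. Under array weights the treated difference was 0.0043 for Kera, 0.097 for Klf5, 0.072 for Mfap5 and -0.0082 for Ppp3cb. Under each array centred on its median the treated difference was -0.0054 for Col4a2. Under quantile normalization the treated difference was 0.051 for Bmp4, 0.028 for Kera, 0.052 for Klf5 and 0.036 for Mki67. Leaving out each array in turn gave treated differences of -0.054 to 0.0065 for Bmp4, -0.38 to 0.079 for Cd68, -0.91 to 0.094 for Cer1, -0.095 to 0.13 for Col4a2, -0.024 to 0.11 for Hmgcs1, -0.057 to 0.037 for Kera, -0.14 to 0.17 for Klf5, -0.088 to 0.029 for Mfap5, -0.13 to 0.012 for Six6, -0.10 to 0.55 for Sox2 and -0.68 to 0.061 for Twist1, and untreated differences of -0.17 to 0.076 for Wt1. List counts that moved by more than 1.5 times without treated day 8 replicate 2 stand in the report where the list is described, as do named genes whose call changed under a setting other than the 2-fold threshold. The estimate of array weights stopped before it reached its tolerance. Quantile normalization put 56.4% of treated calls higher, against 48.8% as reported. With 3 arrays per group and no detection calls, small differences of dim probe sets cannot be told from background.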
